A study of Homo sapiens with 13 samples.

Results

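Osteoblasts grown with and without fetal bovine serum were compared in 4 mRNA sequencing libraries of hFOB 1.19, an immortalized human fetal osteoblast cell line. The positive controls (2 libraries) were grown in medium with 10% fetal bovine serum (FBS), and the negative controls (2 libraries) in medium without it. Both groups received the vehicle DMSO. The 4 libraries were chosen by their treatment labels. They belong to a series of 13 labelled samples in 5 groups, of which 12 had a column of counts. The other 8 libraries came from cells in serum-free medium that received 1 µg/mL of a compound, and are used here only to show where a serum-free culture lay when it was not the negative control: 3 with RES (resveratrol), 3 with POG (peonidin-3-O-glucoside) and 2 with DEG, an abbreviation the labels do not spell out. Per the methods, the serum-free cultures had been without serum for 24 hours when compounds were added. The line is 1 clone that carries a temperature-sensitive SV40 large T antigen, a viral protein that binds the retinoblastoma protein, and this limits it as a model of cell cycle arrest. The methods describe RES and POG added to replicate wells, but the sources used here do not say whether the 2 libraries of either control group came from separate wells or passages, so p-values measure only the spread between these samples, which may be technical.

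Serum supplies cells with lipoproteins, growth factors, lysophospholipids, hormones and iron. Cells sense sterols through SREBP2, a transcription factor held in the endoplasmic reticulum while cholesterol is plentiful and released to the nucleus when it is scarce. Its targets make cholesterol and take up lipoproteins. Serum lipids and growth factors also act through the actin cytoskeleton: polymerized actin frees cofactors of serum response factor (SRF), which binds a sequence called the CArG box, and activates YAP and TAZ, the partners of TEAD factors. Growth factor signals further raise D cyclins and ribosome production and restrain FOXO factors, which drive genes of starved and quiescent cells. Osteoblasts make and mineralize bone matrix, and signal to the cells that resorb it.

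Library totals were 51416358 and 43580200 counted reads with serum and 38959432 and 40043770 without. The positive control libraries stood further apart than those of any other group. Their squared difference per gene, relative to sampling noise, averaged 11.1, against 2.49 for the negative control pair and 2.07 to 2.68 in the 7 pairs of compound-treated libraries. This distance followed gene length. Among 10820 protein-coding genes at 5 CPM (counted reads of a gene, scaled to a common library size) or more, placed in 10 bins by exonic length, the median log2 difference of positive control 1 from the negative controls was 0.207 in the shortest bin (207 to 2377 bases) and −0.168 in the longest (12343 to 70573 bases). For positive control 2 the medians were 0.1001 and −0.042. Over the 10 bins the medians for the 8 compound-treated libraries stayed between −0.00764 and 0.00708. Negative control 1 against 2 showed no such slope either, with a Spearman coefficient across genes of 0.010, against −0.529 for positive control 1 against 2. A gene in the shortest bin was called risen in 43.7% of cases and fallen in 9.797%, and in the longest bin in 12.8% and 36.6%. Whether the slope belongs to the cells or to the RNA and its library preparation was not tested. Calls and counts of members that were lost or gained without positive control 1, or with the length slope removed from each library, therefore stand beside the results.

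**Figure D1:**
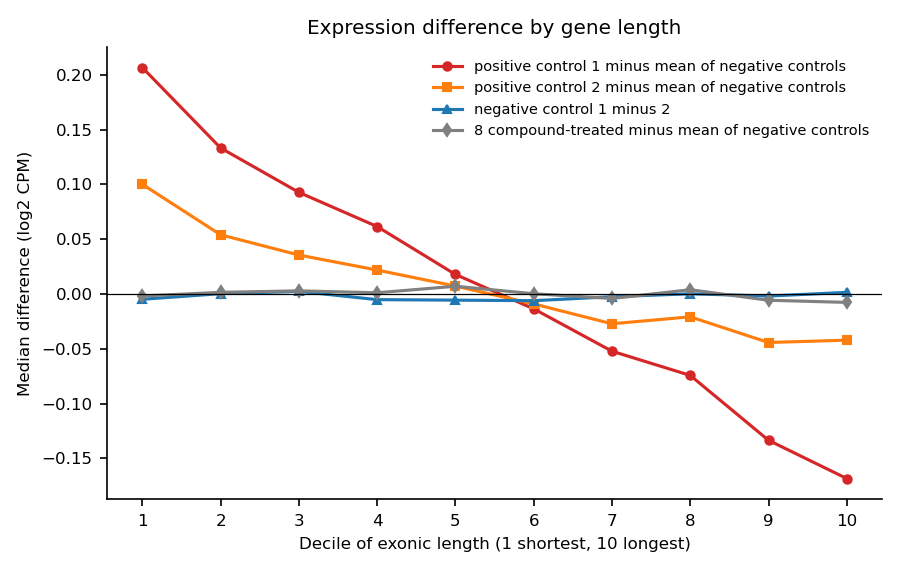
Median difference in log2 CPM (vertical axis) of 10820 protein-coding genes in 10 bins of exonic length (horizontal axis, shortest to longest), for each positive control against the mean of the negative controls, for the compound-treated libraries against the same mean, and for negative control 1 against 2. Positive control 1 runs from 0.207 to −0.168 and positive control 2 from 0.1001 to −0.042, while the other lines stay near 0.

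The comparison asked which genes differ between osteoblasts kept in serum and osteoblasts starved of it. Of 16050 genes tested, 5951 passed an FDR (false discovery rate) of 0.05, or 37.1%. With serum 3010 genes rose (18.8%) and 2941 fell (18.3%), and these shares are the background against which each gene group below is read. Values given below as "rose by" or "fell by" are on the log2 scale. The median absolute log2 fold change of the called genes was 0.34, and 71.9% of them moved by less than 0.5. A change of at least 1 on the log2 scale was reached by 634 genes, 313 risen and 321 fallen. Each of the 634 had the same direction in both positive controls, which choosing genes by the size of their change largely ensured. In 4740 of the called genes both positive controls lay beyond all 8 compound-treated libraries. This is 79.7% of the called genes, and over all tested genes the share was 41.2%. Scaling by plain library totals moved the median of all genes by −0.039 and the share of risen among called genes from 50.6% to 41.1%.

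**Figure D2:**
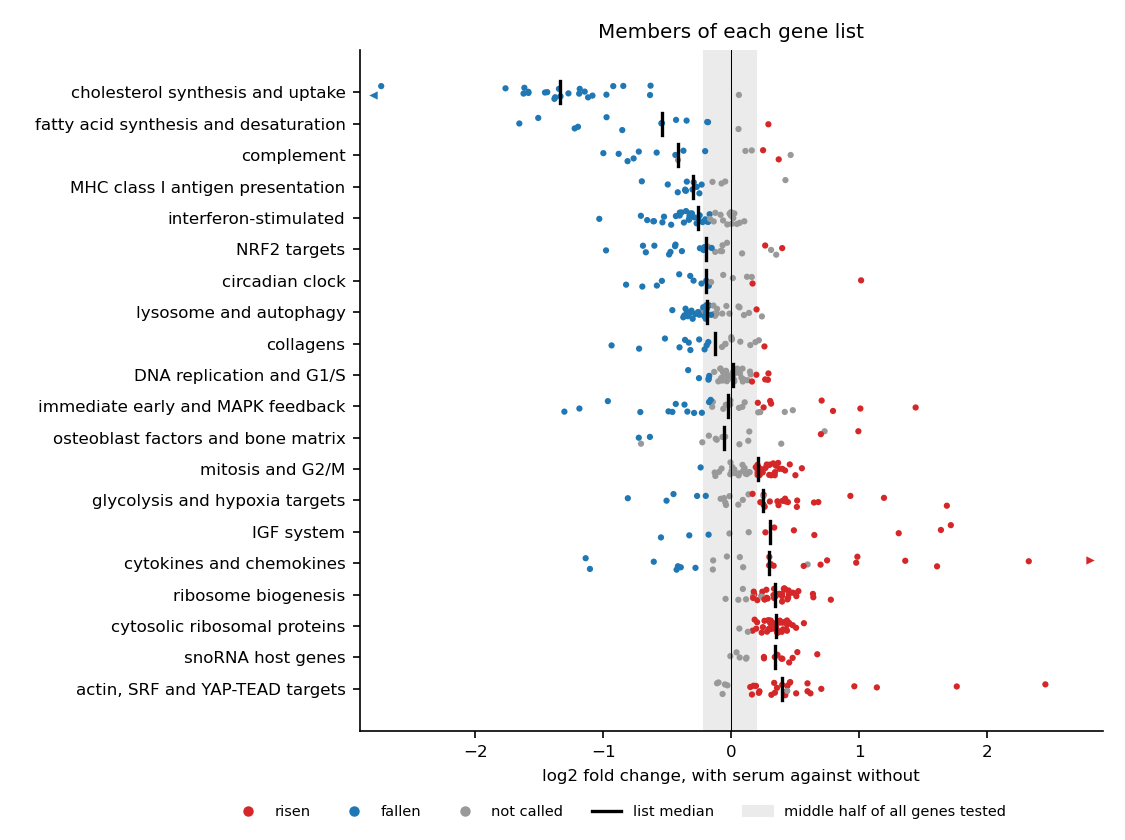
Log2 fold change with serum against without (horizontal axis) of each tested member of 20 gene lists, coloured by call, with the list median as a black bar and the middle 50% of all tested genes (−0.21 to 0.20) shaded. The 2 arrowheads at the edges stand for members beyond 2.8 in either direction, of which the one on the right is CCL26 (3.12). Cholesterol synthesis lies furthest to the left, at a median of −1.33, and the ribosome, snoRNA host and actin lists lie to the right, at 0.34 to 0.40.

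The 12 largest rises included secreted and signalling genes. ESM1, a secreted proteoglycan, rose by 5.66. DHRS3 (ENSG00000162496.8; hg38 chromosome 1, 12567910 to 12618210), which reduces retinaldehyde and so limits retinoic acid, stood at 35.3 and 35.6 CPM with serum and 1.11 and 0.603 CPM without, with a log2 fold change of 5.37 and SE of 0.15. The serum-free values of ESM1 and DHRS3 were near 1 CPM or lower, and the groups lay far apart. Others of the 12 were SERPINB2, an inhibitor of plasminogen activators (32.2 and 32.3 CPM with serum and 5.63 and 5.08 CPM without; log2 fold change 2.59, SE 0.091, FDR 1.29e-152), IL1A and PTGES, described below, and MYOCD, the muscle cofactor of SRF (30.9 and 35.9 CPM with serum and 7.07 and 5.503 CPM without; log2 fold change 2.41, SE 0.11, FDR 6.24e-95). RGS4, which shortens G protein signals, rose to 16.1 and 16.1 CPM from 3.18 and 2.46, and P2RY6, a receptor for uridine diphosphate, to 10.3 and 10.4 from 1.704 and 1.96. MYPN, a protein of the sarcomere, and VSIR, an immune checkpoint receptor, rose by 2.51 and 2.002 (FDR 6.03e-63 and 1.01e-60). FAM20C, the kinase that phosphorylates secreted bone and enamel proteins, stood at 138 and 132 CPM with serum and 36.6 and 35.3 CPM without (log2 fold change 1.91, SE 0.061, FDR 9.63e-167).

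Among the 12 largest falls were HMGCS1, MSMO1 and FADS2, genes of lipid synthesis described below, and LIPG, a lipase of lipoproteins, at 8.86 and 8.24 CPM with serum and 45.3 and 46.01 CPM without (log2 fold change −2.42, SE 0.076, FDR 2.07e-180). Another 3 of the 12 encode proteins of matrix and adhesion. SMOC1, a matricellular protein, stood at 26.2 and 25.2 CPM with serum and 91.7 and 99.7 CPM without (log2 fold change −1.90, SE 0.066, FDR 1.96e-149). ITGA10, a collagen-binding integrin chain, stood at 19.7 and 23.7 CPM with serum and 73.9 and 74.4 CPM without (log2 fold change −1.78, SE 0.079, FDR 5.69e-101), and SVEP1, a large adhesion protein, at 6.17 and 6.49 CPM with serum and 20.5 and 21.4 CPM without. In these 3 genes the compound-treated libraries lay between the groups, at 63.2 to 78.5 CPM, 40.6 to 47.9 CPM and 9.56 to 14.4 CPM. HSD11B1, which regenerates active glucocorticoid inside cells, stood at 7.32 and 5.73 CPM with serum and 24.6 and 23.6 CPM without (log2 fold change −1.88, SE 0.11, FDR 8.90e-66). NTN1, a guidance cue, was at 3.58 and 2.82 CPM with serum and 11.2 and 13.02 CPM without, and SERPINB4, a protease inhibitor, fell by 1.63 (FDR 7.43e-36).

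**Figure D3:**
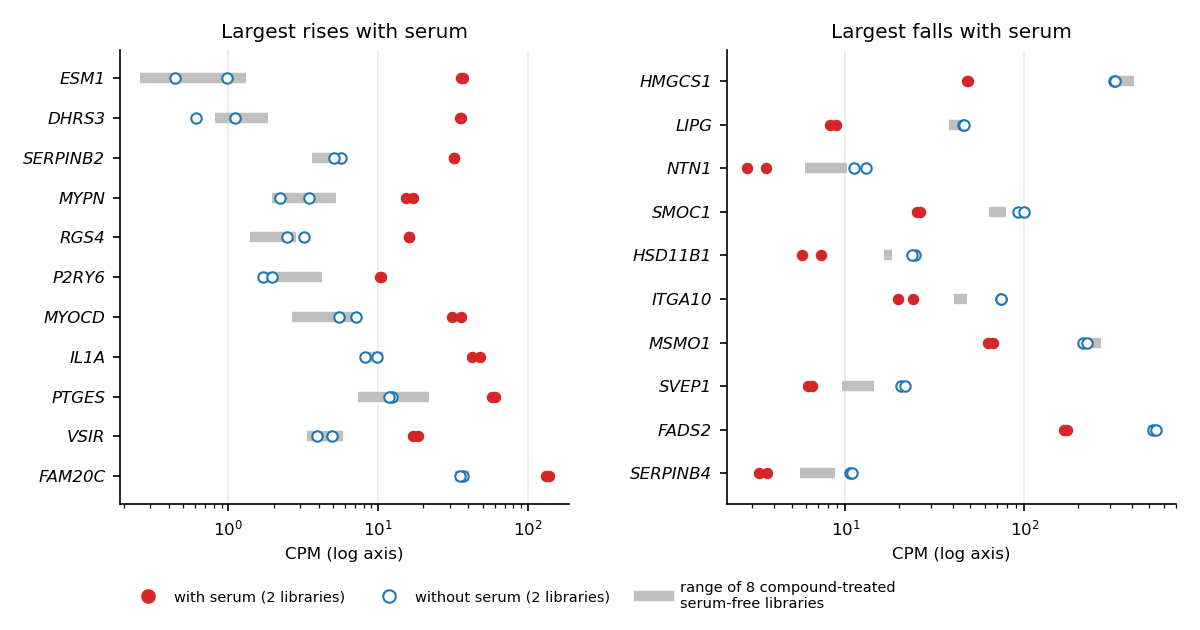
CPM on a log axis (horizontal) of 11 of the 12 genes with the largest rises and 10 of the 12 with the largest falls among called genes at 10 CPM or more in the higher group. Filled points are the 2 libraries with serum, open points the 2 without, and grey bars the range of the 8 compound-treated serum-free libraries; in every row the filled points lie clear of the open ones and of the bar.

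Cholesterol synthesis moved as a block. Of 25 members of the pathway of cholesterol synthesis and uptake, 24 fell with serum and 0 rose, against 18.3% of all genes falling, and the median log2 fold change was −1.33 (−0.0084 over all tested genes). All 24 lay below every compound-treated library, and 79.7% of all called genes lay beyond these libraries. The count was 24 without positive control 1 and 24 with the length slope removed, with medians of −1.35 and −1.30. HMGCS1 (hg38 chromosome 5, 43287470 to 43313512), the synthase that makes HMG-CoA, stood at 47.6 and 48.2 CPM with serum and 315 and 319.9 CPM without (log2 fold change −2.73, SE 0.056), and the compound-treated libraries held 337 to 412 CPM. For HMGCS1 the software rounded the FDR to 0.

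Steps from start to end of the pathway fell. ACAT2, which joins acetyl units, stood at 56.3 and 50.5 CPM with serum and 142 and 147 CPM without. The later mevalonate enzymes MVK and MVD, with log2 fold changes of −0.92 and −1.27, and the isoprenoid enzymes IDI1 and FDPS, at −1.62 and −1.62, fell too. IDI1 had 63.2 and 60.97 CPM with serum and 190.04 and 189.8 CPM without, and FDPS had 182 and 168 CPM with serum and 532 and 542 CPM without. SQLE, a rate-limiting step, stood at 62.8 ± 1.06 against 163 ± 3.87 CPM (mean ± SD, n = 2 and 2), and the sterol ring enzymes LSS, CYP51A1, MSMO1, EBP and DHCR7 had log2 fold changes of −1.35, −1.58, −1.76, −1.12 and −1.33. INSIG1, which holds SREBP2 in the endoplasmic reticulum, stood at 269 and 272 CPM with serum and 726 and 752 CPM without (log2 fold change −1.46, SE 0.05, FDR 4.01e-122). SREBF2, which encodes SREBP2 itself, fell as well, at 321 and 324 CPM with serum and 502 and 493 CPM without (log2 fold change −0.63, SE 0.049, FDR 3.39e-24). PMVK, which phosphorylates mevalonate phosphate, was the member not called, at 17.1 and 15.8 CPM with serum and 15.3 and 16.2 CPM without (log2 fold change 0.06).

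Genes that export cholesterol were read beside those that make it. Of 7 tested, 1 rose and 0 fell, with a median of −0.02 (0.08 without positive control 1). The riser was APOE, at 38.4 and 30.98 CPM with serum and 26.3 and 28.5 CPM without (log2 fold change 0.34, SE 0.088, FDR 0.00164), with positive control 2 inside the compound-treated range of 23.5 to 36.3 CPM. ABCA1, the main cholesterol exporter, stood at 75.3 and 96.3 CPM with serum and 89.2 and 93.5 CPM without (FDR 0.469). Of 14 genes of fatty acid synthesis and desaturation 12 fell and 1 rose, with a median of −0.54. FASN, the fatty acid synthase, stood at 619.9 and 632 CPM with serum and 1418 and 1446 CPM without (log2 fold change −1.20, SE 0.047, FDR 3.26e-86), and SCD, which makes oleate, at 349 and 364 CPM with serum and 827 and 836 CPM without (log2 fold change −1.22, SE 0.049, FDR 3.80e-86). The desaturases FADS2 and FADS1, whose exons overlap on opposite strands, stood at 169 ± 3.605 against 533 ± 12.6 CPM and 192 ± 0.438 against 376 ± 3.71 CPM (mean ± SD, n = 2 and 2). The regulator SREBF1 fell by 0.18 (FDR 0.0132), and INSIG2 was the riser, at 13.8 and 12.6 CPM with serum and 9.84 and 11.7 CPM without. Calls did not hold without positive control 1 for INSIG2 (FDR 0.0909), without negative control 1 for APOE (FDR 0.0681), SREBF1 (FDR 0.234) and INSIG2 (FDR 0.473), without negative control 2 for SREBF1 (FDR 0.25) and with the length slope removed for INSIG2 (FDR 0.0641). New calls appeared without positive control 2 for ABCA1 (fallen, FDR 3.76e-08).

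**Figure D4:**
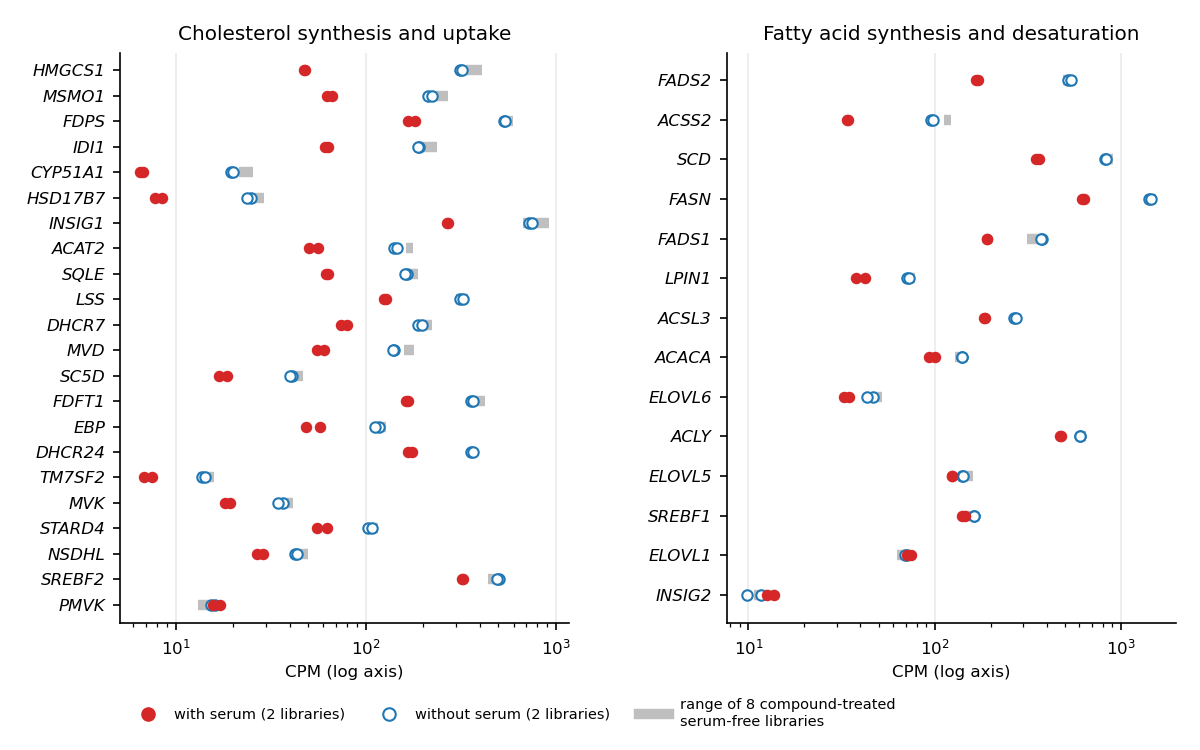
CPM on a log axis (horizontal) of 22 of the 25 genes of cholesterol synthesis and uptake (left) and the 14 of fatty acid synthesis and desaturation (right), in the order of their log2 fold change. Filled points are the 2 libraries with serum, open points the 2 without, and grey bars the range of the 8 compound-treated serum-free libraries; for 21 genes on the left the filled points lie to the left of everything else, and PMVK overlaps.

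The promoters of these genes are shown because the members moved together. RefSeq promoter windows (GRCh38.p14, 250 bases before to 50 after the gene start) were at hand for 18 of the 25 genes, and for 11358 tested genes in all. The letters CCAAT, the site bound by NF-Y, were found on either strand in 15 of the 18 windows (83.3%), against 36.2% of all windows. The core of the sterol response element, searched as TCACNCCAC on both strands, was found in 1 of 18 (SREBF2), against 1.12% of all windows. The stretches below lie before the RefSeq start and read 5′ to 3′ on the gene's strand. Starts of promoters here and below are those of RefSeq. The HMGCS1 gene coordinates given above are from GENCODE, whose start lies further upstream, so part of the HMGCS1 stretch falls inside that gene. Capitals mark the CCAAT letters (ATTGG where they lie on the other strand) and, in SREBF2, also the sterol element, which begins 133 bases before the start. HMGCS1 lies at chr5:43313488-43313587, minus strand, and SREBF2 at chr22:41832952-41833023, plus strand.
HMGCS1: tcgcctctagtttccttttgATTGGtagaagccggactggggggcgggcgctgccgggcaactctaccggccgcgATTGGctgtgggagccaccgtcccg
SREBF2: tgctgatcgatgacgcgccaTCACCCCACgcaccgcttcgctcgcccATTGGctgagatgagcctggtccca

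Genes of the actin cytoskeleton and targets of SRF and YAP rose. Of 31 tested members 25 rose and 0 fell, against 18.8% of all genes rising, with a median log2 fold change of 0.40. With the length slope removed 24 rose and the median was 0.43. In all 25 risers both positive controls lay above every compound-treated library, against 79.7% of all called genes beyond them. TAGLN (transgelin), an actin-binding protein of smooth muscle, stood at 149 and 138 CPM with serum and 43.3 and 41.03 CPM without (log2 fold change 1.76, SE 0.063, FDR 3.55e-135). The targets of YAP rose with it: ANKRD1 stood at 6.88 and 6.09 CPM with serum and 3.02 and 2.86 CPM without (log2 fold change 1.14, SE 0.15, FDR 7.70e-13), CCN1 at 922 and 891 CPM with serum and 466 and 463 CPM without (log2 fold change 0.96, SE 0.047, FDR 2.73e-56), and CCN2 at 339 ± 7.07 against 223 ± 3.36 CPM (mean ± SD, n = 2 and 2). Contractile and structural genes rose too. MYL9, a myosin light chain, had a log2 fold change of 0.70, ACTB (beta actin) 0.46, ACTG1 (gamma actin) 0.42, TPM1 and TPM4 (tropomyosins) 0.44 and 0.40, and FLNA (filamin) 0.16. The members not called were VCL, ACTA2, LATS2, FHL1, LMOD1 and SRF, and SRF stood at 94.1 and 93.3 CPM with serum and 95.1 and 95.7 CPM without (FDR 0.766). Some calls were lost without negative control 1 for FLNA (FDR 0.358) and without negative control 2 for FLNA (FDR 0.234). The test was passed without positive control 2 for VCL (fallen, FDR 1.64e-04) and LATS2 (fallen, FDR 0.00268).

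The CArG box, which SRF binds, was searched for on both strands, which for this motif read alike. It was found in 7 of 26 windows of the list (26.9%), against 1.10% of all windows. Of these 7 genes 6 rose (ACTG2, FHL2, ACTG1, CNN2, TPM4 and FLNA) and SRF itself was not called. The stretches of 4 of them, chosen after their values were seen, are printed with the box in capitals. ACTG2, an actin of smooth muscle that stood at 2.55 and 2.37 CPM with serum and 0.387 and 0.503 CPM without (log2 fold change 2.45, SE 0.29, FDR 1.44e-16), holds the box at 110 and at 73 bases before its start. The stretches lie at chr2:73892878-73892964, plus strand (ACTG2), chr2:105438585-105438634, minus strand (FHL2), chr17:81512864-81512913, minus strand (ACTG1) and chr19:16067345-16067394, plus strand (TPM4). The test was no longer passed without negative control 1 for CNN2 (FDR 0.217) and FLNA (FDR 0.358) and without negative control 2 for CNN2 (FDR 0.192) and FLNA (FDR 0.234).
ACTG2: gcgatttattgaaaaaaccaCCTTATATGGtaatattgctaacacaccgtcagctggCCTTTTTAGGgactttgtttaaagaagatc
FHL2: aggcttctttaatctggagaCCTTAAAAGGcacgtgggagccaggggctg
ACTG1: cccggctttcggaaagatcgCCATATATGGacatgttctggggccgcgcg
TPM4: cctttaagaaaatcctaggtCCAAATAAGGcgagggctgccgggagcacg

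The cell cycle genes were read by phase. Of 47 tested genes of mitosis and G2/M, 27 rose with serum and 1 fell, with a median of 0.21, and the median was 0.21 for either positive control alone. Of 45 genes of DNA replication and G1/S, 5 rose and 5 fell, with a median of 0.01 (−0.019 without positive control 1), a share (22.2%) under the 37.1% of all genes. The steepest mitotic rise was that of CDC20, which activates the complex that ends metaphase, at 246 and 237 CPM with serum and 162 and 167 CPM without (log2 fold change 0.55, SE 0.052, FDR 2.26e-17). KIF20A, a kinesin of cytokinesis, stood at 179 and 180.3 CPM with serum and 128 and 125 CPM without (log2 fold change 0.50, SE 0.053, FDR 3.56e-14), cyclin B1 (CCNB1) at 228 and 205 CPM with serum and 158 and 156 CPM without (log2 fold change 0.46, SE 0.057, FDR 1.55e-10) and the kinase PLK1 at 275 and 261 CPM with serum and 199 and 200.1 CPM without (log2 fold change 0.42, SE 0.052, FDR 2.08e-10). These rises were below 1.5-fold, and in each the compound-treated libraries stood near the negative controls, at 154 to 161 CPM for CDC20 and 185 to 201 CPM for PLK1. Other mitotic genes did not pass: MKI67 stood at 735 and 884 CPM with serum and 892 and 868 CPM without (log2 fold change −0.12), TOP2A at 678 and 736 CPM with serum and 705 and 712 CPM without and AURKB at 164 and 150.1 CPM with serum and 154 and 158 CPM without. The faller was the phosphatase CDC25B (log2 fold change −0.24, SE 0.05, FDR 4.34e-04). Among replication genes, PCNA stood at 214 and 201 CPM with serum and 209 and 215 CPM without, MCM2 at 272 and 257 CPM with serum and 262 and 259.7 CPM without and RRM2 at 408 and 391 CPM with serum and 362 and 368 CPM without, all not called, while POLE, a DNA polymerase, fell by 0.34 (FDR 8.74e-05) and UNG, a repair enzyme, rose by 0.29 (FDR 6.16e-04). For the mitosis and G2/M list, the 27 risen became 13 without negative control 1 and 16 without negative control 2, and the 1 fallen became 3 without positive control 2, 0 without negative control 1, 0 without negative control 2 and 2 with the length slope removed. For the DNA replication and G1/S list, the 5 risen became 12 without positive control 2, 1 without negative control 1 and 2 without negative control 2, and the 5 fallen became 1 without negative control 1 and 2 without negative control 2. Significance was lost without negative control 1 for CDC25B (FDR 0.135) and without negative control 2 for CDC25B (FDR 0.0574) and UNG (FDR 0.142). The threshold was passed without positive control 1 for RRM2 (risen, FDR 0.0101), without positive control 2 for MKI67 (fallen, FDR 4.58e-13) and RRM2 (risen, FDR 5.56e-06) and with the length slope removed for PCNA (fallen, FDR 0.00704) and RRM2 (risen, FDR 0.00293).

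The CHR, a site of the DREAM and MuvB complexes that time mitotic genes, was searched for by its core TTTGAA on both strands. It was in 28 of 40 mitotic windows (70.0%) against 9.75% of all windows, and CCAAT was in 31 of 40 (77.5%) against 36.2%. Both the genes that rose (16 of 22) and those not called (12 of 17) held the CHR core. The E2F site of replication genes, searched as TTTCCCGC and TTTGGCGC, was in 10 and 9 of 39 windows, against 2.53% and 1.09% of all. The stretches of 3 risers and of KIF11, which was not called (162 and 170.2 CPM with serum and 168 and 163 CPM without), are set side by side. Capitals mark the CHR core (TTCAAA on the other strand) and the CCAAT letters. They lie at chr1:43358783-43358950, plus strand (CDC20), chr15:59105006-59105142, plus strand (CCNB2), chr16:23678796-23678885, plus strand (PLK1) and chr10:92593057-92593127, plus strand (KIF11).
CDC20: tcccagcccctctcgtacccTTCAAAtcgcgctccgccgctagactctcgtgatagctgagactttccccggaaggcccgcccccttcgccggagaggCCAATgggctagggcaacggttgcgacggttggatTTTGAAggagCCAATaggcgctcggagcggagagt
CCNB2: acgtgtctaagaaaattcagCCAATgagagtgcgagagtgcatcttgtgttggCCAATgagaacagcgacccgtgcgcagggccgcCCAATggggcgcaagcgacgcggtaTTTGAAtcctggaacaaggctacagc
PLK1: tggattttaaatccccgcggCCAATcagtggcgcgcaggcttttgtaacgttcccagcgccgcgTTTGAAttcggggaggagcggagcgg
KIF11: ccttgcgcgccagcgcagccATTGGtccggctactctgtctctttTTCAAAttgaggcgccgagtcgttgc

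Cyclin D1 (CCND1), which links growth factor signals to the cycle, stood at 323 and 332 CPM with serum and 150.2 and 150.3 CPM without (log2 fold change 1.12, SE 0.052, FDR 6.79e-71), and the compound-treated libraries held 128 to 167 CPM. Its partner CDK4 stood at 139 and 119.5 CPM with serum and 119.96 and 125 CPM without (FDR 0.487), and CDK6 at 78.2 and 96.1 CPM with serum and 71.5 and 72.9 CPM without (log2 fold change 0.27, SE 0.081, FDR 0.00837). Of the 15 cyclin D, CDK4/6 and inhibitor genes tested, 2 rose and 5 fell, or 46.7% called against 37.1% of all genes. The 5 were inhibitors of cyclin-dependent kinases. CDKN1A (p21) stood at 498 and 469.8 CPM with serum and 666 and 671 CPM without (log2 fold change −0.47, SE 0.049, FDR 2.81e-13). CDKN2B (p15) stood at 20.02 and 23.8 CPM with serum and 29.5 and 27.4 CPM without. CDKN1B (p27) stood at 57.9 and 55.9 CPM with serum and 63.7 and 70.03 CPM without. CDKN1C and CDKN2C fell by 0.34 and 0.22. Of the 7 called genes, 3 had both positive controls beyond all compound-treated libraries, against 79.7% of all called genes. At least 1 serum library lay within the compound-treated range for CDK6 (64.7 to 81.0 CPM) and CDKN2B (23.1 to 27.3 CPM). The same held for CDKN1C (4.13 to 6.21 CPM) and CDKN2C (67.8 to 84.2 CPM). For the D cyclins, CDK4/6 and CDK inhibitors list, the 2 risen became 4 without positive control 2, 1 without negative control 1 and 1 without negative control 2, and the 5 fallen became 3 without negative control 1 and 2 without negative control 2. Calls were lost without positive control 1 for CDKN1C (FDR 0.129), without positive control 2 for CDKN1C (FDR 0.0954), without negative control 1 for CDK6 (FDR 0.103), CDKN1C (FDR 0.382) and CDKN2C (FDR 0.137) and without negative control 2 for CDK6 (FDR 0.0529), CDKN1B (FDR 0.309), CDKN1C (FDR 0.127) and CDKN2C (FDR 0.148). Calls were gained without positive control 2 for CDK4 (risen, FDR 2.08e-05).

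Genes that make ribosomes rose together, by small amounts. Of 40 nucleolar genes of ribosome biogenesis 34 rose and 0 fell, with a median log2 fold change of 0.34, and the median was 0.34 for positive control 2 against the negative controls. LYAR stood at 45.5 and 42.4 CPM with serum and 30.2 and 26.01 CPM without (log2 fold change 0.64, SE 0.075, FDR 7.20e-14), NOP16 at 25.9 and 24.5 CPM with serum and 16.5 and 15.8 CPM without (log2 fold change 0.64, SE 0.078, FDR 7.87e-13) and BYSL, a factor of the small subunit, at 35.4 and 32.6 CPM with serum and 24.1 and 23.2 CPM without (log2 fold change 0.52, SE 0.071, FDR 2.13e-10). The abundant nucleolar proteins moved as well: NCL (nucleolin) stood at 801 and 804 CPM with serum and 635 and 639 CPM without and NPM1 (nucleophosmin) at 844 and 780.03 CPM with serum and 585 and 602 CPM without. Of 49 cytosolic ribosomal protein genes 47 rose and 0 fell, with a median of 0.35. RPL3 stood at 874 and 809 CPM with serum and 554 and 578 CPM without (log2 fold change 0.57, SE 0.051, FDR 8.69e-18), RPL12 at 701 and 618 CPM with serum and 465 and 461 CPM without and RPS2 at 1249.7 and 1126 CPM with serum and 853 and 845 CPM without, and RPS27 and RPS20 were not called. Ribosomal protein genes have short transcripts and many processed pseudogenes, which the counting may have shared reads with. Their median was 0.41 for positive control 1 and 0.27 for positive control 2, and 0.29 with the length slope removed. The exonic length used for that removal joins all annotated exons of a gene and had a median of 3617 bases in this list. The slope removed may therefore be too small for their short transcripts. Of 15 host genes of small nucleolar RNAs, which guide the modification of ribosomal RNA, 10 rose and 0 fell (median 0.34). GAS5, a host gene named for its rise in growth arrest, rose with serum, at 145 and 133 CPM with serum and 107 and 109 CPM without (log2 fold change 0.36, SE 0.058, FDR 8.74e-07), and SNHG3 stood at 76.9 and 72.01 CPM with serum and 53.3 and 50.6 CPM without. New calls appeared without positive control 2 for RPS27 (risen, FDR 1.28e-05) and RPS20 (risen, FDR 9.68e-09) and with the length slope removed for RPS20 (risen, FDR 0.0145).

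The immediate early genes, which serum induces within minutes, were mixed in these cultures. Of 34 tested 8 rose and 13 fell. FOSL1 (Fra-1), an AP-1 member, stood at 405 and 373 CPM with serum and 144 and 142 CPM without (log2 fold change 1.44, SE 0.055, FDR 4.34e-107), the steepest rise of the list, while FOS stood at 5.68 and 6.35 CPM with serum and 10.4 and 9.25 CPM without (log2 fold change −0.71, SE 0.12, FDR 9.60e-08). JUN rose by 0.30 (FDR 9.97e-06), and EGR1 was not called, at 87.01 and 86.8 CPM with serum and 96.8 and 94.8 CPM without. The orphan receptors NR4A2 and NR4A3 fell, NR4A2 at 21.3 and 24.04 CPM with serum and 52.5 and 50.2 CPM without (log2 fold change −1.19, SE 0.073, FDR 2.21e-50). The feedback inhibitors of MAP kinase signals fell where they were called, apart from DUSP1: SPRY4 stood at 89.6 and 91.6 CPM with serum and 125 and 124 CPM without (log2 fold change −0.46, SE 0.055, FDR 2.25e-11), DUSP5 and DUSP6 had log2 fold changes of −0.37 and −0.34, and DUSP1 0.25. Of 32 genes tied to FOXO factors, starvation and quiescence, 15 fell and 7 rose. PIK3IP1, an inhibitor of PI3 kinase, stood at 8.05 and 9.05 CPM with serum and 15.3 and 16.7 CPM without (log2 fold change −0.91, SE 0.10, FDR 5.06e-16), BTG2 at 15.2 and 15.3 CPM with serum and 28.4 and 27.9 CPM without, CCNG2, a cyclin of arrested cells, at 37.7 and 38.97 CPM with serum and 60.7 and 61.3 CPM without, and the receptor ERBB3 at 14.2 and 16.2 CPM with serum and 26.3 and 25.9 CPM without. Those that rose included GADD45A (41.04 and 38.9 CPM with serum and 23.4 and 24.1 CPM without), BNIP3 (84.2 against 57.6 CPM) and IRS1, the insulin receptor substrate (96.1 and 107 CPM with serum and 68.5 and 69.7 CPM without), while IRS2 fell by 0.46 (FDR 1.58e-08). Calls did not hold without negative control 1 for DUSP1 (FDR 0.0647) and without negative control 2 for DUSP1 (FDR 0.109). The test was passed without positive control 1 for EGR1 (fallen, FDR 0.011), without positive control 2 for EGR1 (fallen, FDR 0.0107) and with the length slope removed for EGR1 (fallen, FDR 0.00294).

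Most interferon-stimulated genes fell. Of 43 tested 28 fell and 0 rose, with a median of −0.26. RSAD2 (viperin) stood at 16.5 and 15.8 CPM with serum and 32.5 and 33.3 CPM without (log2 fold change −1.03, SE 0.073, FDR 2.58e-37), XAF1 at 37.1 and 41.9 CPM with serum and 67.5 and 60.9 CPM without (log2 fold change −0.71, SE 0.073, FDR 2.05e-17) and TRIM22 at 74.6 and 74.1 CPM with serum and 109.7 and 116 CPM without (log2 fold change −0.61, SE 0.058, FDR 2.41e-18). The abundant members ISG15 and MX1 fell by 0.17 and 0.31, and IFI6, IFI27 and IFIT1, at 877 against 835 CPM, 200.1 against 197 CPM and 93.9 against 95.7 CPM, were not called. Among the 28 fallers, 12 had both positive controls below all compound-treated libraries, a lower share than the 79.7% of all called genes that lay beyond them; for RSAD2 the compound-treated libraries spread over 16.7 to 42.1 CPM. STAT2 and IRF9, factors that carry the interferon signal, fell by 0.54 and 0.60. For the interferon-stimulated list, the 0 risen became 1 without positive control 1, 3 without positive control 2 and 1 with the length slope removed. Some calls were lost without positive control 2 for ISG15 (FDR 0.0771), without negative control 1 for ISG15 (FDR 0.194) and without negative control 2 for ISG15 (FDR 0.36). The threshold was passed without positive control 2 for IFI6 (risen, FDR 9.41e-06) and IFI27 (risen, FDR 0.00901).

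Genes that present antigen on MHC class I fell or were not called. Of 16 tested 12 fell and 0 rose (median −0.30), and 11 of the 12 lay below all compound-treated libraries, where 79.7% of all called genes lay beyond them. HLA-B stood at 2063 and 1869 CPM with serum and 2583 and 2655 CPM without (log2 fold change −0.42, SE 0.05, FDR 1.18e-09), TAPBP, which loads peptides, at 432 and 426 CPM with serum and 600.2 and 607 CPM without (log2 fold change −0.50, SE 0.047, FDR 1.94e-15), and the transporter TAP1 at 131 and 129 CPM with serum and 162 and 170.2 CPM without. HLA-C and B2M fell by 0.35 and 0.27; HLA genes are near-identical in parts, so their reads may have been exchanged between them. Of 15 complement genes 9 fell and 2 rose. The proteases C1S and C1R, which start the classical pathway, stood at 88.5 and 83.5 CPM with serum and 168 and 175 CPM without (log2 fold change −0.999, SE 0.057, FDR 8.05e-50) and 281 and 269 CPM with serum and 487 and 476 CPM without (log2 fold change −0.81, SE 0.05, FDR 1.33e-38), and C3, the central component, at 298 and 314 CPM with serum and 517 and 519.6 CPM without (log2 fold change −0.76, SE 0.051, FDR 5.19e-33). The membrane regulator CD46 fell by 0.58 and CD59 rose by 0.37 (FDR 1.75e-18 and 1.52e-08). For the complement list, the 2 risen became 1 without negative control 1 and 1 without negative control 2. The test was no longer passed without negative control 2 for B2M (FDR 0.072).

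Cytokine genes moved in both directions. Of 26 tested 13 rose and 7 fell. The interleukin 1 genes rose most among those at 5 CPM or more: IL1A stood at 47.8 and 42.2 CPM with serum and 9.79 and 8.14 CPM without (log2 fold change 2.32, SE 0.093, FDR 2.14e-124) and IL1B at 996 and 938 CPM with serum and 316 and 316 CPM without (log2 fold change 1.61, SE 0.05, FDR 1.58e-145), with 262 to 314 CPM in the compound-treated libraries. CSF2 (GM-CSF) stood at 67.4 and 62.6 CPM with serum and 25.1 and 25.5 CPM without (log2 fold change 1.36, SE 0.065, FDR 1.16e-78), and CXCL8 (interleukin 8), a chemokine for neutrophils, at 1779 and 1685 CPM with serum and 877 and 868 CPM without (log2 fold change 0.99, SE 0.047, FDR 5.88e-58). CXCL3 and CXCL5 rose by 0.98 and 0.70. The CC chemokines CCL5 and CCL2 fell, CCL5 at 13.05 and 13.3 CPM with serum and 28.6 and 27.9 CPM without (log2 fold change −1.10, SE 0.077, FDR 2.32e-38) and CCL2 at 221 and 207 CPM with serum and 288 and 287 CPM without (log2 fold change −0.43, SE 0.052, FDR 1.35e-10). IL6 stood at 765 and 714 CPM with serum and 972 and 996 CPM without (log2 fold change −0.42, SE 0.049, FDR 2.43e-10), and the compound-treated libraries held 583 to 1023 CPM, a range that takes in all 4 libraries. TNFRSF11B (osteoprotegerin), the decoy that blocks RANKL, rose from 38.4 and 39.8 to 56.6 and 59.5 CPM (log2 fold change 0.57, SE 0.062, FDR 1.33e-14), while TNFSF11 (RANKL) lay below 1 CPM in all 4 libraries, at 0.364 and 0.355 CPM with serum and 0.6197 and 0.176 CPM without, and was not called.

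Of 16 genes of prostaglandin synthesis and reception 6 rose and 4 fell. PTGES, the inducible synthase of prostaglandin E2, stood at 60.6 and 57.7 CPM with serum and 12.4 and 11.8 CPM without (log2 fold change 2.28, SE 0.071, FDR 4.77e-198), with 7.34 to 21.9 CPM in the compound-treated libraries. PTGS2 (COX-2), the step before it, stood at 121 and 136 CPM with serum and 151 and 153 CPM without (log2 fold change −0.24, SE 0.062, FDR 0.00269), and PTGS1 (COX-1) at 17.2 and 18.8 CPM with serum and 13.7 and 14.3 CPM without (log2 fold change 0.35, SE 0.088, FDR 8.69e-04). The prostacyclin receptor PTGIR fell by 0.46 (FDR 6.13e-06). For the prostaglandin synthesis and receptors list, the 6 risen became 3 without negative control 1, and the 4 fallen became 2 without negative control 2. Significance was lost without negative control 1 for PTGS2 (FDR 0.0782) and PTGS1 (FDR 0.0765) and without negative control 2 for PTGS2 (FDR 0.117).

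**Figure D5:**
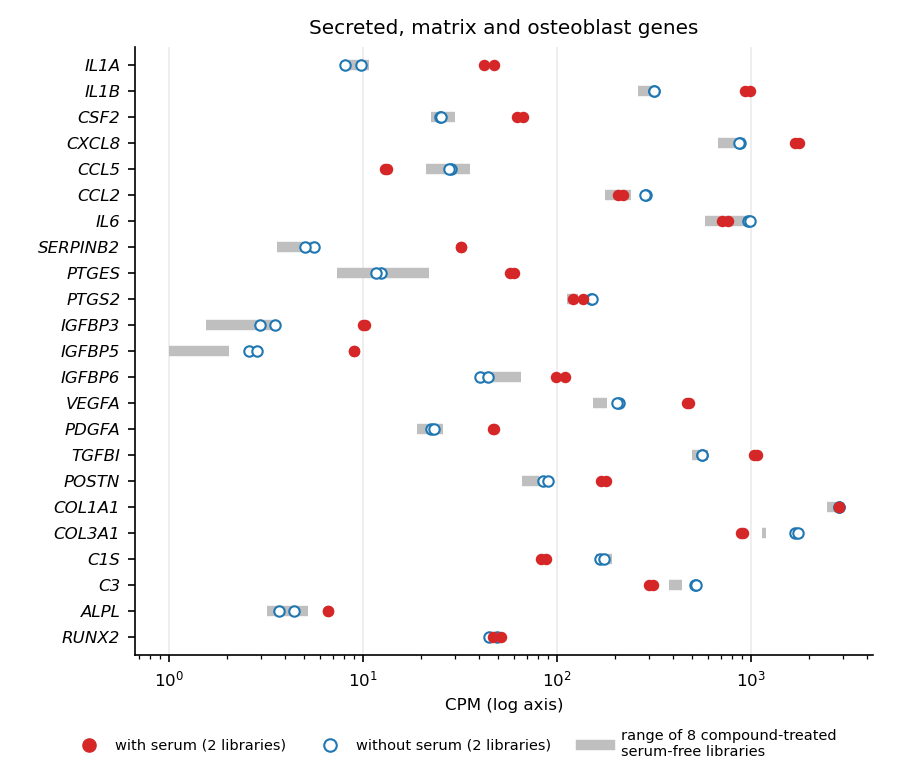
CPM on a log axis (horizontal) of 23 genes of secreted factors, matrix and osteoblast identity described in the text. Filled points are the 2 libraries with serum, open points the 2 without, and grey bars the range of the 8 compound-treated serum-free libraries; IL1A, IL1B and IGFBP5 lie far to the right with serum, COL3A1, C1S and C3 to the left, and the groups of COL1A1 and RUNX2 lie almost on each other.

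In the plasminogen and coagulation list 8 of 15 genes rose and 3 fell. Beside SERPINB2, the activator PLAU (urokinase) rose by 0.24 (FDR 7.71e-04) and its receptor PLAUR was not called, at 312 and 293 CPM with serum and 289 and 291 CPM without. TFPI2, an inhibitor of plasmin, stood at 2964 and 2826 CPM with serum and 2129.6 and 2139 CPM without (log2 fold change 0.44, SE 0.044, FDR 4.89e-12), and the protein C receptor PROCR at 39.1 and 35.4 CPM with serum and 25.2 and 27.5 CPM without (log2 fold change 0.50, SE 0.073, FDR 6.81e-09). The thrombin receptor F2R fell by 0.30 and F2RL1 by 0.56. Of 15 matrix metalloproteinases and their TIMP inhibitors 3 rose and 5 fell. TIMP3 stood at 147 and 156 CPM with serum and 81.8 and 82.8 CPM without (log2 fold change 0.88, SE 0.058, FDR 1.26e-37) and MMP2 at 332 and 318 CPM with serum and 250.1 and 252 CPM without (log2 fold change 0.37, SE 0.05, FDR 2.30e-08). MMP1 and MMP3 were low, at 4.77 and 5.92 CPM with serum and 10.5 and 11.01 CPM without and 5.93 and 5.54 CPM with serum and 11.9 and 12.6 CPM without, and fell (log2 fold change −1.01, SE 0.12, FDR 7.72e-14, and log2 fold change −1.10, SE 0.11, FDR 2.05e-20), yet the compound-treated libraries lay at 4.63 to 7.204 CPM and 4.26 to 5.75 CPM, at or near the serum values. The membrane protease MMP14 was not called, at 1689.9 and 1687 CPM with serum and 1609 and 1589 CPM without. Calls were lost without negative control 1 for PLAU (FDR 0.2) and F2R (FDR 0.0516). Calls were gained without positive control 1 for MMP14 (risen, FDR 0.0319) and without positive control 2 for PLAUR (risen, FDR 0.00476) and MMP14 (risen, FDR 0.0181).

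Of 22 collagen genes 11 fell and 1 rose, and collagen transcripts are long. The median of −0.13 was −0.06 with the length slope removed. COL3A1, a fibrillar chain, stood at 896 and 914 CPM with serum and 1698 and 1753 CPM without (log2 fold change −0.93, SE 0.047, FDR 1.39e-52), and the compound-treated libraries lay between, at 1147 to 1194 CPM. The chains of type VI and of the basement membrane fell by less, COL6A1 at 2982 and 2897 CPM with serum and 3892 and 3865 CPM without (log2 fold change −0.40, SE 0.043, FDR 9.38e-11) and COL4A1 at 1341 and 1425 CPM with serum and 1777 and 1767 CPM without (log2 fold change −0.36, SE 0.048, FDR 5.86e-08). Both chains of type I collagen, the main protein of bone, were not called: COL1A1 stood at 2868 and 2858 CPM with serum and 2836 and 2852 CPM without, and COL1A2 at 1419.8 and 1416 CPM with serum and 1329.8 and 1362 CPM without. COL13A1 was the riser (log2 fold change 0.26, SE 0.064, FDR 0.0013). For the collagens list, the 1 risen became 4 without positive control 1, 2 without positive control 2, 0 without negative control 2 and 4 with the length slope removed, and the 11 fallen became 7 without negative control 1 and 7 without negative control 2. The threshold was missed without negative control 2 for COL13A1 (FDR 0.185). New calls appeared without positive control 1 for COL1A2 (risen, FDR 0.0461), without positive control 2 for COL1A2 (risen, FDR 0.0229) and with the length slope removed for COL1A2 (risen, FDR 0.00645).

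Proteoglycan and hyaluronan genes had 6 risen and 9 fallen of 20. VCAN (versican) stood at 30.8 and 37.2 CPM with serum and 12.96 and 14.05 CPM without (log2 fold change 1.33, SE 0.096, FDR 5.07e-38) and the small leucine-rich LUM (lumican) and DCN (decorin) at 16.1 and 13.1 CPM with serum and 29.9 and 31.8 CPM without (log2 fold change −1.08, SE 0.091, FDR 2.18e-28) and 25.5 and 25.5 CPM with serum and 44.6 and 47.3 CPM without (log2 fold change −0.85, SE 0.066, FDR 1.83e-30). CEMIP, which breaks down hyaluronan, stood at 49.4 and 54.6 CPM with serum and 111 and 112 CPM without (log2 fold change −1.11, SE 0.064, FDR 1.22e-52). For LUM, DCN and CEMIP the compound-treated libraries lay below the negative controls, at 16.9 to 21.5 CPM, 27.5 to 39.3 CPM and 58.3 to 72.5 CPM. Of 25 integrin and laminin genes 9 rose and 10 fell. Those that rose included LAMB3 (237 against 159 CPM) and the chains ITGA6 (54.1 and 59.3 CPM with serum and 30.1 and 29.3 CPM without) and ITGA4 (37.5 and 41.7 CPM with serum and 22.3 and 21.7 CPM without). Beside ITGA10, the collagen-binding chain ITGA11 fell (131 and 137 CPM with serum and 249.5 and 251 CPM without; log2 fold change −0.90, SE 0.054, FDR 3.18e-44), as did LAMA4 (78.2 and 81.1 CPM with serum and 142 and 142 CPM without) and ITGB8 (3.05 and 2.82 CPM with serum and 9.295 and 9.65 CPM without). For the integrins and laminins list, the 9 risen became 5 without negative control 1 and 5 without negative control 2.

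Genes that mark osteoblasts moved in both directions. Of 16 tested factors and bone matrix genes 2 rose and 2 fell, 4 of 16 against 37.1% of all genes. With the length slope removed, however, 6 of 16 were called, beside 5859 of the 16050 genes. Of the 27 listed, 11 lay below the filter, among them SP7 (osterix, 9 reads with serum and 5 without) and IBSP (0 reads in all 4 libraries). RUNX2, the factor that commits cells to the lineage, stood at 47.2 and 51.6 CPM with serum and 49.5 and 44.7 CPM without (FDR 0.554) and SPARC (osteonectin) at 1177 and 1123 CPM with serum and 1039.5 and 1051 CPM without (FDR 0.0638, and 0.0369 with the quasi-likelihood test). POSTN (periostin) stood at 169 and 179.95 CPM with serum and 84.7 and 90.03 CPM without (log2 fold change 0.99, SE 0.06, FDR 1.10e-45) and ALPL, the alkaline phosphatase needed for mineral, at 6.59 and 6.66 CPM with serum and 4.42 and 3.72 CPM without (log2 fold change 0.70, SE 0.14, FDR 6.33e-06). The ligand BMP4 fell, at 10.1 and 8.93 CPM with serum and 14.4 and 15.03 CPM without (log2 fold change −0.64, SE 0.097, FDR 9.17e-09). BGLAP (osteocalcin) was low, at 0.971 and 0.853 CPM with serum and 1.16 and 1.81 CPM without. RUNX2, SPARC and the type I collagen genes were thus present in both groups, while SP7 and IBSP were at or near 0. For the osteoblast factors and bone matrix list, the 2 risen became 4 without positive control 1 and 4 without positive control 2, and the 2 fallen became 1 without negative control 2. In bulk samples fewer cells of a type and less RNA per cell cannot be told apart. The test was passed without positive control 1 for SPARC (risen, FDR 0.00387), without positive control 2 for SPARC (risen, FDR 2.55e-07), without negative control 1 for BGLAP (fallen, FDR 0.0287) and with the length slope removed for SPARC (risen, FDR 0.0401) and BGLAP (fallen, FDR 0.0368).

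Of 33 genes of the TGF-β and BMP pathway 12 rose and 8 fell. TGFBI, an adhesion protein named for its induction by TGF-β, stood at 1083 and 1037 CPM with serum and 564 and 559 CPM without (log2 fold change 0.91, SE 0.047, FDR 2.38e-50), and SMAD3, which carries the TGF-β signal, at 260.1 and 277 CPM with serum and 119 and 116 CPM without (log2 fold change 1.19, SE 0.056, FDR 2.08e-71). The BMP targets ID1 and ID3 rose, ID1 at 20.995 and 19.7 CPM with serum and 10.2 and 9.45 CPM without (log2 fold change 1.05, SE 0.09, FDR 2.87e-26) and ID3 by 0.83, and so did BMPER, a BMP regulator (21.2 and 20.1 CPM with serum and 8.16 and 8.84 CPM without). The receptor TGFBR1 and the feedback gene PMEPA1 fell by 0.40 and 0.43. The ligand TGFB1 was not called, at 384 and 360.3 CPM with serum and 401 and 392 CPM without. In the Wnt list 3 of 25 rose and 8 fell. DKK1, a secreted Wnt inhibitor, stood at 10.1 and 9.52 CPM with serum and 4.31 and 4.25 CPM without (log2 fold change 1.19, SE 0.12, FDR 3.56e-20), the co-receptors LRP6 and LRP5 fell by 0.38 and 0.17, and AXIN2, a common target, was not called, at 3.03 and 2.98 CPM with serum and 3.43 and 3.04 CPM without. LRP6 stood at 57.6 and 80.7 CPM with serum and 88.7 and 91.2 CPM without. Positive control 1 was lower than the other 3 libraries, and the LRP6 call was lost with the DESeq2 test (FDR 0.248). For the Wnt pathway list, the 3 risen became 5 without positive control 2, and the 8 fallen became 4 without negative control 1 and 5 without negative control 2. Some calls were lost without negative control 1 for LRP5 (FDR 0.282) and without negative control 2 for LRP5 (FDR 0.304). The threshold was passed without positive control 1 for TGFB1 (fallen, FDR 6.86e-04) and with the length slope removed for TGFB1 (fallen, FDR 0.00549).

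Of 12 genes of the IGF system 7 rose and 3 fell. The binding proteins IGFBP5, IGFBP3 and IGFBP6 rose most. IGFBP5 stood at 9.04 and 9.001 CPM with serum and 2.61 and 2.86 CPM without (log2 fold change 1.72, SE 0.13, FDR 1.96e-33), IGFBP3 at 10.03 and 10.3 CPM with serum and 2.97 and 3.54 CPM without (log2 fold change 1.64, SE 0.13, FDR 7.03e-33) and IGFBP6 at 110.2 and 99.6 CPM with serum and 40.3 and 44.2 CPM without (log2 fold change 1.31, SE 0.068, FDR 9.87e-66). IGFBP4 was not called, at 1923 and 1744 CPM with serum and 1840.3 and 1852 CPM without. The receptors fell: IGF1R by 0.33 (FDR 3.89e-04), and IGF2R, at 372 and 439 CPM with serum and 594 and 589.8 CPM without, by 0.55. Of 29 ligands and receptors of the EGF, FGF, PDGF and related families 14 rose and 8 fell. VEGFA stood at 479.6 and 471 CPM with serum and 209 and 206 CPM without (log2 fold change 1.19, SE 0.05, FDR 4.63e-84), PDGFA at 47.7 and 47.2 CPM with serum and 22.4 and 23.2 CPM without (log2 fold change 1.05, SE 0.065, FDR 4.22e-47), FGF2 at 475 ± 30.8 against 309.7 ± 9.504 CPM (mean ± SD, n = 2 and 2) and FGF5 at 64.1 and 68.5 CPM with serum and 42.4 and 41.5 CPM without. Among receptors, PDGFRB stood at 128 and 141 CPM with serum and 265 and 265 CPM without (log2 fold change −0.99, SE 0.058, FDR 2.07e-46), FGFR4 fell by 1.07 and FGFR3 by 0.80, MET, the receptor of HGF, rose by 0.59 (FDR 1.41e-14), and EGFR and FGFR1 were not called. Calls were gained without positive control 1 for IGFBP4 (fallen, FDR 0.0482) and EGFR (risen, FDR 1.93e-11) and with the length slope removed for IGFBP4 (fallen, FDR 0.0384) and EGFR (risen, FDR 1.40e-04).

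The study asked whether starvation moved genes of cell death. Of 37 tested genes of the BCL2 family, caspases and death receptors 15 rose and 6 fell. With the length slope removed 11 rose and 4 fell. BCL2A1, which opposes apoptosis, stood at 9.43 and 8.22 CPM with serum and 4.49 and 4.25 CPM without (log2 fold change 1.01, SE 0.13, FDR 5.04e-13), MCL1 rose by 0.30 (FDR 9.98e-06) and BCL2L1 (BCL-XL) by 0.19 (FDR 0.0117). BCL2 was low, at 3.64 and 3.55 CPM with serum and 4.91 and 4.62 CPM without, and fell (log2 fold change −0.41, SE 0.15, FDR 0.0194). Of the genes that promote apoptosis, BCL2L11 (BIM) stood at 22.5 and 20.5 CPM with serum and 34.4 and 31.2 CPM without (log2 fold change −0.61, SE 0.076, FDR 1.79e-12) and BMF at 9.47 and 9.76 CPM with serum and 17.4 and 18.996 CPM without (log2 fold change −0.92, SE 0.093, FDR 3.92e-19), and both fell. BBC3 (PUMA) fell by 0.26, while BAK1 rose by 0.20 (FDR 0.0266). BAX and BAD were not called, at 119 and 114 CPM with serum and 107 and 108 CPM without and 41.97 and 39.3 CPM with serum and 39.9 and 37.1 CPM without. The caspase CASP9 rose by 0.26 (FDR 0.039), and CASP6 was not called (FDR 0.156). For the BCL2 family, caspases and death receptors list, the 15 risen became 4 without negative control 1 and 6 without negative control 2, and the 6 fallen became 3 without negative control 1. Significance was lost without positive control 1 for BCL2 (FDR 0.0637) and BAK1 (FDR 0.0761), without positive control 2 for BCL2 (FDR 0.0734), BBC3 (FDR 0.168) and CASP9 (FDR 0.0788), without negative control 1 for BCL2 (FDR 0.219), BCL2L1 (FDR 0.268), BBC3 (FDR 0.257), BAK1 (FDR 0.292) and CASP9 (FDR 0.142), without negative control 2 for BCL2 (FDR 0.117), BCL2L1 (FDR 0.208), BAK1 (FDR 0.185) and CASP9 (FDR 0.351) and with the length slope removed for BCL2 (FDR 0.108) and BAK1 (FDR 0.198). New calls appeared without positive control 2 for BAX (risen, FDR 6.62e-04) and CASP6 (risen, FDR 0.00162).

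Metabolic genes followed several courses. Of 33 genes of glycolysis and hypoxia 19 rose and 5 fell. LDHA, which makes lactate, stood at 955 and 891 CPM with serum and 587 and 589 CPM without (log2 fold change 0.65, SE 0.049, FDR 2.94e-24), and GPI, PFKP, ENO1, PGK1 and GAPDH rose by 0.52, 0.51, 0.44, 0.42 and 0.36. HIF1A, the oxygen-regulated factor, stood at 689 and 715 CPM with serum and 439.8 and 434 CPM without (log2 fold change 0.68, SE 0.049, FDR 1.60e-27), and ADM at 57.6 and 54.96 CPM with serum and 29.1 and 29.8 CPM without. The transporter SLC2A3 fell, at 103 and 94.8 CPM with serum and 135 and 144 CPM without, SLC2A1 was not called, at 147 and 136 CPM with serum and 142 and 148 CPM without, and ALDOC stood at 31.1 and 30.6 CPM with serum and 52.3 and 55.5 CPM without (log2 fold change −0.81, SE 0.063, FDR 4.74e-29). Of 28 genes of the amino acid response 12 rose and 5 fell. ASNS (asparagine synthetase) stood at 18.9 and 20.8 CPM with serum and 12.1 and 12.4 CPM without (log2 fold change 0.69, SE 0.089, FDR 5.05e-12), while SLC7A11, the cystine carrier, stood at 16.6 and 22.2 CPM with serum and 37.5 and 38.6 CPM without (log2 fold change −0.98, SE 0.10, FDR 2.16e-18). SLC7A11 is also a target of NRF2, and of 24 genes of that list 13 fell and 2 rose. NQO1 stood at 65.4 and 61.9 CPM with serum and 94.1 and 98.5 CPM without (log2 fold change −0.60, SE 0.059, FDR 2.42e-17), the ferritin chain FTH1 at 2447 ± 134 against 3391 ± 72.2 CPM (mean ± SD, n = 2 and 2), and PGD of the pentose phosphate path fell by 0.44. For NQO1 the compound-treated libraries held 49.9 to 87.2 CPM, a range that takes in the serum values. For the ATF4 and amino acid response list, the 12 risen became 5 without negative control 2, and the 5 fallen became 3 without negative control 1. For the NRF2 targets list, the 2 risen became 4 without positive control 2, 1 without negative control 1 and 1 without negative control 2. For the glycolysis and hypoxia targets list, the 5 fallen became 3 without negative control 2.

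Lysosome and autophagy genes fell in 21 of 36 cases and rose in 1, with a median of −0.19. SQSTM1 (p62), an autophagy receptor, stood at 617 and 581 CPM with serum and 763 and 767 CPM without (log2 fold change −0.36, SE 0.048, FDR 5.19e-08), NEU1 at 50.6 and 47.5 CPM with serum and 65.9 and 68.7 CPM without and the cholesterol carriers of the lysosome, NPC1 and NPC2, fell by 0.26 and 0.30. For the lysosome and autophagy list, the 1 risen became 4 without positive control 2, 0 without negative control 1 and 0 without negative control 2, and the 21 fallen became 9 without negative control 1 and 7 without negative control 2. Genes of protein folding in the endoplasmic reticulum had 2 risers and 5 fallers of 25 (28.0% against 37.1%); HSPA5 (BiP) was not called, at 659 and 625 CPM with serum and 587 and 591 CPM without. Of 13 genes of the mitochondrial genome, which are short, 10 rose and 1 fell, and with the length slope removed 5 rose and the median went from 0.22 to 0.08. MT-CO1 stood at 10154 and 9354 CPM with serum and 7981 and 7810.3 CPM without. For the mitochondrially encoded list, the 10 risen became 6 without negative control 1, 2 without negative control 2 and 5 with the length slope removed, and the 1 fallen became 0 without negative control 1 and 0 without negative control 2. For the endoplasmic reticulum folding and UPR list, the 2 risen became 7 without positive control 2, 0 without negative control 1, 0 without negative control 2 and 4 with the length slope removed, and the 5 fallen became 8 without positive control 1, 3 without negative control 1 and 0 without negative control 2. Calls were lost without negative control 1 for NPC1 (FDR 0.0509) and without negative control 2 for NPC1 (FDR 0.0774) and NPC2 (FDR 0.0912). The test was passed without positive control 1 for HSPA5 (risen, FDR 0.0226), without positive control 2 for HSPA5 (risen, FDR 2.30e-06) and with the length slope removed for HSPA5 (risen, FDR 0.00919).

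Among 17 clock genes 10 fell and 2 rose. PER3 stood at 25.8 and 29.3 CPM with serum and 48.4 and 48.6 CPM without (log2 fold change −0.82, SE 0.071, FDR 9.93e-25), PER1 at 63.2 and 65.5 CPM with serum and 104 and 104 CPM without (log2 fold change −0.69, SE 0.058, FDR 4.15e-24) and PER2 at 8.64 and 9.19 CPM with serum and 13.1 and 12.7 CPM without, while CLOCK and BMAL1 were not called. Of 16 genes that respond to glucocorticoids 10 rose and 4 fell. ANGPTL4 stood at 115 and 102 CPM with serum and 63.8 and 65.6 CPM without (log2 fold change 0.74, SE 0.065, FDR 1.52e-22) and KLF9 at 53.9 and 54.1 CPM with serum and 33.02 and 34.5 CPM without, but TSC22D3 (GILZ) fell, at 9.97 and 10.6 CPM with serum and 14.02 and 14.5 CPM without (log2 fold change −0.47, SE 0.094, FDR 1.97e-05), and FKBP5 was not called, at 55.4 and 60.7 CPM with serum and 57.7 and 57.04 CPM without. The receptor NR3C1 fell by 0.31. Of 11 metallothionein and zinc genes 5 rose and 1 fell, MT2A standing at 1459 and 1319 CPM with serum and 974 and 968 CPM without (log2 fold change 0.51, SE 0.051, FDR 3.40e-14); these genes are short and have close paralogs. For the circadian clock list, the 2 risen became 1 without negative control 1, 1 without negative control 2 and 1 with the length slope removed, and the 10 fallen became 5 without negative control 1 and 5 without negative control 2. For the metallothioneins and zinc response list, the 1 fallen became 0 without positive control 1, 0 without negative control 1, 0 without negative control 2 and 0 with the length slope removed. The threshold was passed without positive control 2 for CLOCK (fallen, FDR 0.0116).

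Among the most abundant changed genes, VIM (vimentin) stood at 3109 and 2958 CPM with serum and 2054 and 2075 CPM without (log2 fold change 0.55, SE 0.045, FDR 8.36e-19), HMGA1, a chromatin protein of growing cells, at 2410.2 and 2229.6 CPM with serum and 1209 and 1150.3 CPM without (log2 fold change 0.97, SE 0.05, FDR 2.89e-51), the chaperone HSPA8 at 1419.8 and 1352 CPM with serum and 984 and 969.9 CPM without, and the matrix peroxidase PXDN, which fell, at 915 and 991 CPM with serum and 1439.9 and 1432 CPM without (log2 fold change −0.60, SE 0.051, FDR 2.57e-19).

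Levels of cell type markers were summed in each library. The summed level of the osteoblast markers was 5690 and 5636 CPM with serum and 5347 and 5408 without. The endothelial markers summed to 99.8 and 99.0 against 91.1 and 90.8 CPM, of which TEK and EGFL7 made up most, and CDH5 had 1 read in the 4 libraries. Of the 6 endothelial genes tested 3 rose and 3 fell. Macrophage and osteoclast markers summed to 15.3 and 14.2 against 15.2 and 14.8 CPM, and 0 of 5 tested were called. Chondrocyte markers summed to 33.6 and 31.3 against 24.2 and 27.2 CPM. Of the 4 tested 2 rose and 1 fell, the faller with a log2 fold change of −1.98. A riser was SOX9, which also marks skeletal progenitors. It stood at 6.19 and 6.02 CPM with serum and 1.99 and 3.34 CPM without (log2 fold change 1.19, SE 0.19, FDR 3.21e-09). Adipocyte markers summed to 13.6 and 12.0 against 11.5 and 10.2 CPM, with ADIPOQ, FABP4 and LPL at 0 reads. Epithelial markers summed to 508 and 466 against 400 and 408 CPM, nearly all of it KRT8 and KRT18, and EPCAM lay below 1 CPM. No red cell gene passed the filter. The part of other cells in the gene groups above was not tested. Calls did not hold without positive control 2 for EGFL7 (FDR 0.241), without negative control 1 for EGFL7 (FDR 0.423) and KRT18 (FDR 0.366), without negative control 2 for EGFL7 (FDR 0.155) and KRT18 (FDR 0.191) and with the length slope removed for KRT18 (FDR 0.0582).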

How the data were processed

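Libraries of polyadenylated RNA (NuGen Universal Plus kit) were sequenced in pairs. The authors deposited unscaled counts for each gene, made per their methods with STAR on hg38 and featureCounts; versions, annotation release and strand setting were not given in the sources used here. Genes that overlap on opposite strands (147 of the 375 chosen) and close paralogs therefore carry uncertain counts. The table held 43836 genes and 12 library columns; 0 columns were left unmapped, and DEG replicate 3 was not analysed here. Ensembl identifiers were matched to symbols (43214 found), and coordinates and exonic lengths were taken from the GENCODE v44 annotation of hg38.

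Genes were filtered with filterByExpr (16050 left, 99.951% of the reads) and tested with the exact test of edgeR 4.0.16 in R 4.3.3, with TMM scaling, dispersions from the 4 libraries (common coefficient of variation 4.83%) and Benjamini-Hochberg adjustment over all genes; SEs came from the quasi-likelihood fit. CPM were computed after TMM scaling of all 12 libraries together. Replicates were numbered in accession order. The gene lists, tests and members were chosen with earlier results of these data known. Named genes were the 12 largest rises and falls at 10 CPM or more with calls kept without each library; up to 5 members per list at 5 CPM or more in the main direction and 3 in the other; the 10 most abundant called genes past 0.5 on the log2 scale; genes the study discusses; and 103 other list members, called or not, chosen after their values were seen. Some of the chosen genes are not reported here. Shared control libraries mean that compound-treated values are given only as ranges.

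Alternatives were quasi-likelihood and DESeq2 1.42.0 tests, other scaling, filters, dispersions and thresholds, each library left out, and, added after the data were seen, removal of the loess trend of log2 CPM on length. The test was tried on simulated counts for these 16050 genes.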

Additional observations from a re-analysis of the deposited data

How the results depend on the processing

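The count of 5951 called genes (3010 risen, 2941 fallen) was 7259 with dispersions from all 12 libraries, 5592 with the quasi-likelihood test, 4282 with DESeq2, 5448 with no filter and 5859 with the length slope removed; 5039 of the calls were kept under the last. Asking for an absolute log2 change of 1 or more left 634 genes (313 risen, 321 fallen), and then 0 mitotic, 0 ribosome biogenesis and 0 ribosomal protein genes risen, 3 actin, SRF and YAP-TEAD targets risen and 1 interferon-stimulated gene fallen. Leaving out 1 library at a time gave 2988 to 7419 called genes, 1463 to 3872 risen and 1525 to 3547 fallen. The lowest counts came without negative control 1 (2988) and 2 (3202), where the lone negative control is assumed to vary like the positive pair; the highest came without positive control 2, where the spread comes from the negative pair alone. The mitotic risers ranged from 13 to 33. Of the calls of 329 chosen genes, 261 held without each library in turn. The most calls lost were 54 without negative control 1 and 51 without negative control 2, against 17 under DESeq2, and none of the 329 changed direction under any setting run. No paired analysis was possible because the labels give no replicate numbers that the groups share. On simulated counts, 100 genes were changed by 0.5 and 100 by 1 on the log2 scale. The exact test recovered 71% and 86% of them, with 9 false calls, so changes of these sizes can be missed. The simulation held far fewer changed genes than the 5951 called in the data, and no length slope. Its recovery and false calls therefore need not hold for the data.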

Other observations

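The libraries of the serum pair also differed in single genes. Among 8165 genes at 20 CPM or more, 11 differed by at least 0.5 on the log2 scale between the positive controls and 0 did so between the negative controls. In 3 of the 11, chosen after their values were seen, the negative controls lay between the positive ones. RTF1 stood at 99.4 and 51.7 CPM with serum and 74.5 and 77.4 without, MRPL17 at 45.4 and 69.1 against 55.7 and 57.8, and TANC2 at 87.8 and 141 against 111.8 and 111.6 CPM. None of the 3 was called, with log2 fold changes between −0.0115 and 0.0296, as this way of choosing them largely ensured.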
